A study of Mus musculus with 6 samples.

Results

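Keratins are the intermediate filament proteins of epithelial cells, and their genes were selected here by symbol, as the protein-coding genes named Krt followed by a number, of which the count table held 53 among 34866 genes. The 6 keratins of simple, single-layered epithelium (*Krt7*, *Krt8*, *Krt18*, *Krt19*, *Krt20* and *Krt23*) were set against the other 47, most of which belong to stratified epithelium, hair follicle or hair. RNA was sequenced from intestinal adenomas excised from C57BL/6J mice aged 100 to 120 days, with 3 libraries from Apc1322T/+ mice and 3 from ApcMin/+ mice. Both are heterozygous germline truncating alleles of the tumour suppressor *Apc*, and no library of unaffected intestine was analysed here. By the study's methods, several RNA extractions of a single mouse were usually pooled into a sample, so that a library may average over adenomas. The family was proposed after *Krt14*, *Krt4* and *Krt6a* had been seen to be higher in the ApcMin libraries of this contrast, so that the differences between the genotypes are given as a description. Counts of keratins past a threshold are given in that sense too, and no p-value of a single keratin is reported.

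A keratin filament is built from equal parts of a type I and a type II keratin, which are stable only as partners. In the intestine the type II keratin Krt8 pairs with the type I keratins Krt18, Krt19 and Krt20, and Krt20 marks differentiated cells of the villus and the surface. Krt5 and Krt14 are the partners of the basal layer of stratified epithelium, Krt4 and Krt13 those of the suprabasal layers of oesophagus, forestomach and mouth, and Krt6a, Krt6b, Krt16 and Krt17 are induced in injured or activated epithelium. Desmosomes and hemidesmosomes anchor the filaments to neighbouring cells and to the basement membrane, and the transcription factor p63 (*Trp63*) is required for stratified epithelium.

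The genes lie in clusters of type I keratins on chromosome 11, where 27 of the 53 were found, and of type II keratins on chromosome 15, where 26 were found including the type I gene *Krt18* next to *Krt8*. *Krt14*, *Krt16*, *Krt17* and *Krt42* are neighbours at the end of the first cluster, and *Krt6b*, *Krt6a* and *Krt5* are neighbours in the second. Neighbours are alike in sequence, which matters for reads of 50 bases. *Krt14* was identical to *Krt16* at 86.5% and to *Krt17* at 84.1% of aligned coding bases, whereas its identity to the simple keratin *Krt19* was 74.3%. The windows of 90 coding bases below, all from exon 6 and the minus strand in GRCm38 (GENCODE M21 transcripts), show how these genes come to share reads, with capitals marking the bases that differ from *Krt14*. They lie at chr11:100204108-100204197 (*Krt14*), chr11:100246610-100246699 (*Krt16*), chr11:100257433-100257522 (*Krt17*) and chr11:100140947-100141036 (*Krt19*).
Krt14: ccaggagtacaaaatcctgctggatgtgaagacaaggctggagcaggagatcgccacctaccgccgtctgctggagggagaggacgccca
Krt16: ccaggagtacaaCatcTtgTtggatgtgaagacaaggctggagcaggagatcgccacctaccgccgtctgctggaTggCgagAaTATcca
Krt17: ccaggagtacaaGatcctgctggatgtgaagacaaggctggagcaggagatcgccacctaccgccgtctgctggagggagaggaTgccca
Krt19: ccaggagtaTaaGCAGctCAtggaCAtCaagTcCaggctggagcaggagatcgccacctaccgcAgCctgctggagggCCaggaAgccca

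In this window *Krt17* differed from *Krt14* at 2 bases, *Krt16* at 9 and *Krt19* at 17. A read of 50 bases placed between the differing bases of *Krt17* fits both genes, and the software that assigned the reads divides it between them.

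Over whole transcripts, 49.5% of the stretches of 50 bases in *Krt6a* also occurred in another gene, mainly *Krt6b*, and the share was 14.4% in *Krt14*, 37.6% in *Krt16*, 3.99% in *Krt17* and 8.52% in *Krt5*. None of the stretches of *Krt4*, *Krt13*, *Krt84*, *Krt7*, *Krt19*, *Krt20* or *Krt23* did. For *Krt8* the share was 26.9%, all of it in common with its pseudogene *Krt8-ps*.

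The estimated counts summed to between 23132461 and 33518324 per library, and the detection limit was set at 3 counts, or between 0.0895 and 0.130 CPM (counts relative to library size), which covers counting error only. Levels are given below as CPM scaled by edgeR's TMM method, and differences as the log2 fold change of ApcMin over Apc1322T with its standard error (SE) from edgeR's quasi-likelihood fit across the 16536 genes that passed its filter on low counts. The median log2 fold change of all genes tested was 0.017. The 8 markers of intestinal epithelium were detected in every library, as the tissue label has it. ApcMin replicate 1 stood apart by pancreatic acinar genes. There the chymotrypsinogen gene *Ctrb1* had 2679 counts, against between 2 and 16 in the other 5 libraries, and keratin values without this library are given below where they matter. A lower level in bulk RNA can mean fewer cells of a type or less RNA per cell, which cannot be told apart here.

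The simple keratins made up nearly all keratin mRNA. Their summed level was 10260, 12317 and 12617 CPM in Apc1322T replicates 1, 2 and 3, and 8433, 10111 and 8976 CPM in ApcMin replicates 1, 2 and 3. All ApcMin libraries lay below all Apc1322T libraries, at 0.782 times the mean (11731 ± 1283 against 9174 ± 856 CPM, SD, n = 3 each). This separation rested on the TMM scaling. As a share of unscaled counts, the simple keratins made up 1.03%, 1.12% and 1.17% in Apc1322T and 0.901%, 1.06% and 0.942% in ApcMin. ApcMin replicate 2 then lay above Apc1322T replicate 1. The sum of the other 47 keratins was 23.7, 26.9 and 30.9 CPM in Apc1322T and 72.4, 73.7 and 57.7 CPM in ApcMin. It thus ran the opposite way, being 2.50 times higher in ApcMin (27.1 ± 3.59 against 67.9 ± 8.91 CPM, SD, n = 3 each), with no overlap. Most of this difference came from *Krt14*, *Krt6a* and *Krt4*, the genes that prompted the choice. Without them the sum was 18.3, 22.0 and 23.9 CPM in Apc1322T and 33.0, 31.7 and 25.7 CPM in ApcMin, a ratio of 1.41 (21.4 ± 2.88 against 30.1 ± 3.94 CPM). ApcMin replicate 3 then lay close above the Apc1322T range. Per 10000 CPM of simple keratins, and with all 47 counted, there were 23.1, 21.8 and 24.5 CPM of other keratins in Apc1322T and 85.8, 72.9 and 64.2 CPM in ApcMin.

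**Figure D1:**
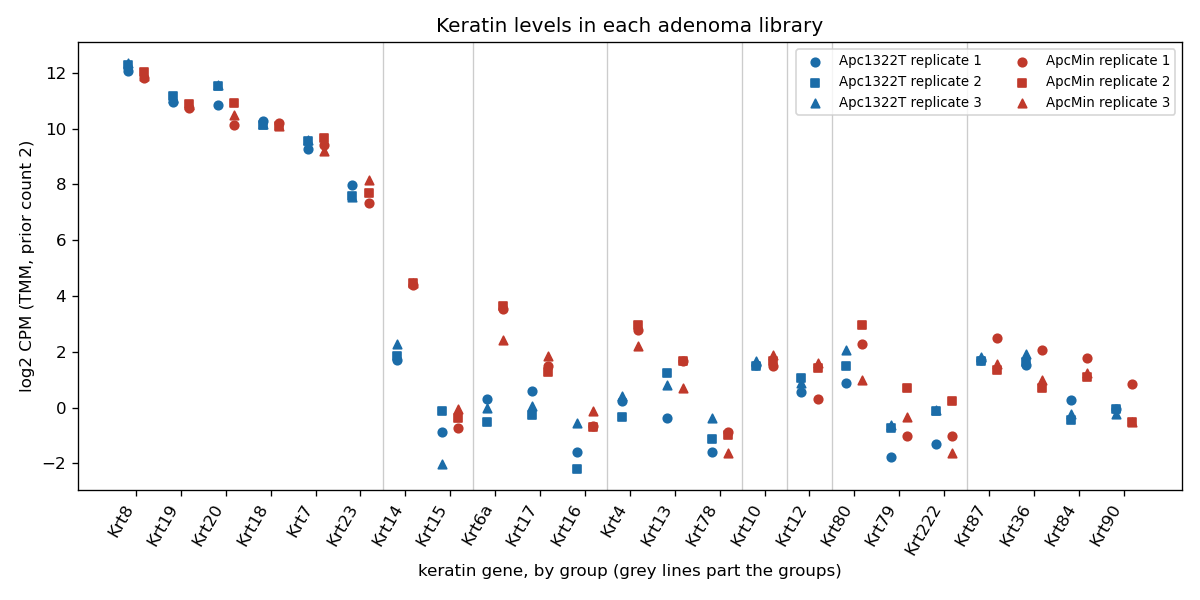
Level of each of the 23 keratins that passed the filter on low counts, as log2 CPM on the vertical axis, in the 3 Apc1322T libraries (blue) and the 3 ApcMin libraries (red), with a marker shape for each replicate. The 6 simple keratins on the left lie above all others, and *Krt14*, *Krt6a* and *Krt4* show ApcMin points above all Apc1322T points.

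Of the 53 keratins, 23 passed the filter on low counts, namely all 6 simple keratins and 17 of the other 47. The remaining 30 had too few counts to be tested, 20 of the 53 having under 3 counts in every library. At an adjusted p under 0.01, edgeR called 0 keratins, and 0 of all genes tested (0%). At an adjusted p under 0.05 it called 1 keratin, *Krt14*, which was also the only gene called among all those tested (0.00605%). This call was lost when any library but Apc1322T replicate 1 was left out, with DESeq2's size factors, without robust estimation and with the replicate number as a block. At an unadjusted p under 0.05, 5 keratins were higher in ApcMin (*Krt14*, *Krt6a*, *Krt4*, *Krt17* and *Krt84*), where 7.49% of all genes tested were, and 2 were lower (*Krt8* and *Krt20*), where 7.6% of all were. In TMM-scaled levels, the libraries did not overlap for the same 5 keratins higher in ApcMin (11% of all genes tested) and for *Krt8* and *Krt19*, the 2 lower (9.96%). DESeq2, at an adjusted p under 0.01, called *Krt14*, *Krt6a* and *Krt4* and 1.12% of the genes to which it gave an adjusted p. As these 3 genes prompted the choice of the family, nothing is read from these shares.

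*Krt8*, the type II keratin of simple epithelium, was the most abundant. Its level was 4334, 4957 and 5272 CPM in Apc1322T and 3592, 4187 and 3752 CPM in ApcMin. Every ApcMin library was lower, with a log2 fold change of -0.34 (SE 0.14). *Krt18*, its widespread type I partner, was at 1253, 1133 and 1147 CPM in Apc1322T and at 1168, 1085 and 1097 CPM in ApcMin. These ranges overlapped, and the log2 fold change was -0.08 (SE 0.10). *Krt19*, a type I keratin lacking a tail domain and found in ductal and intestinal epithelium, was at 1972, 2292 and 2195 CPM in Apc1322T and at 1718, 1889 and 1830 CPM in ApcMin. As with *Krt8*, the libraries did not overlap after TMM scaling, and the log2 fold change was -0.25 (SE 0.11). Relative to unscaled library totals, ApcMin replicate 2 lay above Apc1322T replicate 1 for both genes.

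*Krt20*, the keratin of differentiated enterocytes and goblet cells, varied the most between libraries among the abundant simple keratins. It was at 1833, 2982 and 3039 CPM in Apc1322T and at 1116, 1940 and 1430 CPM in ApcMin. ApcMin replicate 2 exceeded Apc1322T replicate 1, so that the groups overlapped, although the log2 fold change of -0.81 (SE 0.27) was the most negative of the family. *Krt7*, a keratin of ducts and transitional epithelium, was at 617, 759 and 775 CPM in Apc1322T and at 678, 803 and 581 CPM in ApcMin (log2 fold change -0.06, SE 0.16). *Krt23*, a type I keratin of gastrointestinal epithelium, was at 252, 194 and 189 CPM in Apc1322T and at 161, 208 and 287 CPM in ApcMin (log2 fold change 0.05, SE 0.23). Neither separated the genotypes. The median log2 fold change of the 6 simple keratins was -0.16, with 5 of them lower and 1 higher in ApcMin.

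Per kilobase of transcript, which allows levels of different genes to be set side by side, the order of the simple keratins by their mean over the 6 libraries was *Krt8* (2221 CPM per kb), *Krt19* (1258), *Krt20* (1067), *Krt18* (798), *Krt7* (172) and *Krt23* (137). *Krt8* exceeded every other keratin in each library. The libraries' ranges overlapped for the neighbours *Krt19* and *Krt20*, *Krt20* and *Krt18*, and *Krt7* and *Krt23*, whereas those of *Krt18* and *Krt7* were far apart. The length used for *Krt7* is that of a 4094-base transcript, so that its level per kilobase would be higher if a shorter transcript were used. *Krt14*, the first of the other keratins in this order, had a mean of 7.52 CPM per kb, and *Krt6a* and *Krt4* had 2.34 and 1.72.

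The composition of the simple keratins per kilobase was led by *Krt8* in both genotypes, with 38.2% to 40.0% of their sum in every library. *Krt20* made up 17.0% to 23.3% in Apc1322T and 12.6% to 18.6% in ApcMin, and *Krt18* made up 11.8% to 15.6% and 13.9% to 17.7%. Type II keratins amounted to 0.694 to 0.741 times the type I keratins in Apc1322T and to 0.722 to 0.774 times in ApcMin, ranges that overlapped. Among the other 47 keratins the same ratio was 0.414 to 0.508 in Apc1322T and 0.368 to 0.674 in ApcMin, so that their type I members, led by *Krt14*, outweighed their type II members in every library.

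Genes of the epithelium as a whole were lower together with the simple keratins. The summed level of the 8 intestinal epithelium markers was 8179 to 10309 CPM in Apc1322T and 5813 to 7719 CPM in ApcMin, with 8 of 8 lower (median log2 fold change -0.41, range -1.32 to -0.11). *Epcam*, the most abundant, was at -0.40 (SE 0.12), and the fatty acid binding protein gene *Fabp1* was the most negative (SE 0.45). The ratio of the simple keratin sum to this marker sum was 1.25, 1.19 and 1.23 in Apc1322T and 1.24, 1.31 and 1.54 in ApcMin. Of the 3 ApcMin libraries, 2 lay above the Apc1322T range and replicate 1 inside it. Without *Fabp1* the ratio was 1.38, 1.39 and 1.41 in Apc1322T and 1.30, 1.46 and 1.64 in ApcMin, so that ApcMin replicate 1 then lay below and the other 2 above that range. Enterocyte genes were lower for 9 of 9 (median -0.76), with *Apoa4* at -0.90 (SE 0.41) and *Lct* at -2.24 (SE 1.26), and their summed levels overlapped, at 15353 to 27561 and 9783 to 20028 CPM. Stroma and muscle genes were higher for 7 of 7 (median 0.84), with *Col1a1* at 0.84 (SE 0.62) and *Col1a2* at 1.05 (SE 0.61), and summed levels of 627 to 1561 and 1089 to 3219 CPM. The part of cell composition in the keratin differences was not tested.

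**Figure D2:**
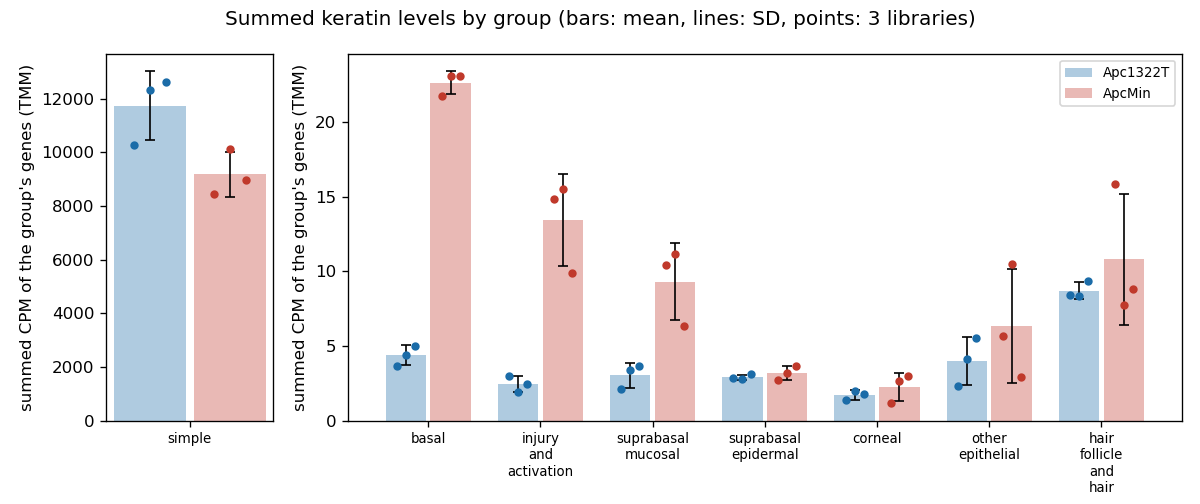
Summed CPM of the simple keratins (left panel) and of each group of other keratins (right panel, on its own scale) in Apc1322T (blue) and ApcMin (red), with the mean as a bar, the SD as a line and the 3 libraries as points. The simple sum is lower in ApcMin (9174 against 11731 CPM on average), and the basal, injury and mucosal sums, which include *Krt14*, *Krt6a* and *Krt4*, are higher without overlap.

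Among the other 47 keratins, the genes with the largest differences were a basal, an injury-related and a mucosal keratin (*Krt14*, *Krt6a* and *Krt4*), while most other members of these groups differed less or overlapped between the genotypes. *Krt14*, the basal type I keratin, was at 3.16, 3.55 and 4.75 CPM in Apc1322T and at 21.2, 21.8 and 22.2 CPM in ApcMin. In estimated counts this was 86.2, 74.6 and 108 against 759, 554 and 701. The 3 libraries of each genotype lay close together and the groups were far apart, with a log2 fold change of 2.51 (SE 0.18), or 5.69-fold. *Krt14* alone made up 13.2% to 15.4% of the summed CPM of the other keratins in Apc1322T and 29.3% to 38.4% in ApcMin.

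Its basal partner *Krt5* was near the detection limit. The estimated counts of *Krt5* were 1.07, 0 and 2.31 in Apc1322T and 1.04, 13.8 and 1.04 in ApcMin, so that only ApcMin replicate 2 exceeded 3 counts. *Krt15*, the other basal type I keratin, was at 0.477, 0.855 and 0.175 CPM in Apc1322T and at 0.535, 0.708 and 0.885 CPM in ApcMin, and its log2 fold change of 0.50 (SE 0.58) was smaller than its error. *Krt14* thus stood alone among the 3 basal keratins in both its level and its difference.

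*Krt6a*, a type II keratin of activated epithelium, showed the largest log2 fold change of the family. It was at 1.16, 0.611 and 0.906 CPM in Apc1322T and at 11.4, 12.6 and 5.30 CPM in ApcMin, without overlap (log2 fold change 3.41, SE 0.42, or 10.7-fold). ApcMin replicate 3 was the lowest of its group. *Krt17*, a type I keratin induced by injury, was at 1.44, 0.776 and 0.963 CPM in Apc1322T and at 2.70, 2.34 and 3.55 CPM in ApcMin (1.43, SE 0.34), again without overlap. *Krt16*, the usual type I partner of Krt6, was at 0.242, 0.144 and 0.591 CPM in Apc1322T and at 0.559, 0.558 and 0.848 CPM in ApcMin. Its groups overlapped (0.95, SE 0.57). *Krt6b* did not pass the filter, with estimated counts of 3.38, 8.15 and 0 in Apc1322T and 6.94, 1.85 and 6.18 in ApcMin.

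Because these genes share reads, the sums over each set of genes with shared stretches are of use, as they do not depend on how a read was divided within the set. *Krt14*, *Krt16*, *Krt17*, *Krt42* and the pseudogene *Gm11597* together had 136, 94 and 145 counts in Apc1322T and 880, 633 and 848 in ApcMin. *Krt6a*, *Krt6b*, *Krt5*, *Gm5478* and *Gm5414* together had 36, 21 and 23 counts in Apc1322T and 416, 335 and 175 in ApcMin. Both sums were higher in every ApcMin library, and the single genes *Krt14* and *Krt6a* made up most of them in ApcMin. How the counts within a set are split between *Krt6a* and *Krt6b*, or between *Krt14* and *Krt16*, is uncertain.

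*Krt4*, the type II keratin of the suprabasal layers of oesophagus and forestomach, shares no stretch of read length with another gene. It had 30, 15 and 29 counts in Apc1322T and 242, 194 and 144 in ApcMin. At 1.10, 0.713 and 1.27 CPM against 6.76, 7.63 and 4.55 CPM, the groups were separate, with a log2 fold change of 2.61 (SE 0.33), or 6.10-fold. *Krt13*, its type I partner, was at 0.697, 2.28 and 1.66 CPM in Apc1322T and at 3.13, 3.11 and 1.55 CPM in ApcMin. ApcMin replicate 3 lay inside the Apc1322T range, and the log2 fold change was 0.75 (SE 0.50). *Krt78*, another keratin of mucosal epithelium, was at 0.257, 0.380 and 0.701 CPM in Apc1322T and at 0.475, 0.432 and 0.253 CPM in ApcMin (-0.19, SE 0.53), and *Krt76* had at most 1 count.

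Without ApcMin replicate 1, the library with pancreatic genes, the log2 fold changes were 2.52 for *Krt14*, 3.28 for *Krt6a*, 2.55 for *Krt4* and 1.47 for *Krt17*. These 4 values thus did not rest on that library, and neither did the median log2 fold change of the simple or the other tested keratins, at -0.16 and 0.71 without it.

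**Figure D3:**
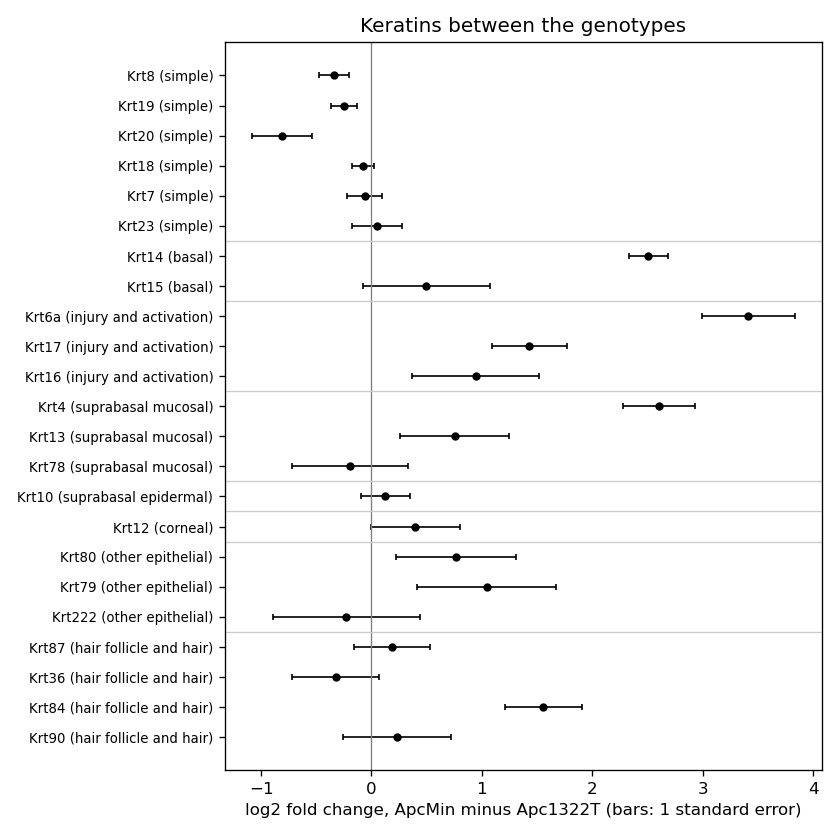
Log2 fold change (ApcMin minus Apc1322T, horizontal axis) of each of the 23 tested keratins, by group, with bars of 1 SE. *Krt6a* (3.41), *Krt4* (2.61) and *Krt14* (2.51) lie farthest to the right, and *Krt20* (-0.81) farthest to the left.

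Of the 5 keratins of the suprabasal epidermis, only *Krt10* passed the filter. *Krt1*, *Krt2* and *Krt9* were listed at 0 counts in all 6 libraries, which allows a level of up to 0.0895 to 0.130 CPM, and *Krt77* had at most 1 count. *Krt10*, the type I partner of Krt1, was at 2.82, 2.76 and 3.11 CPM in Apc1322T and at 2.71, 3.15 and 3.64 CPM in ApcMin, ranges that overlapped (0.13, SE 0.22). *Krt12*, the keratin of corneal epithelium, was at 1.39, 2.00 and 1.75 CPM in Apc1322T and at 1.17, 2.63 and 2.97 CPM in ApcMin (0.40, SE 0.40).

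Of the further epithelial keratins, *Krt80* was at 1.76, 2.71 and 4.07 CPM in Apc1322T and at 4.83, 7.78 and 1.93 CPM in ApcMin (0.77, SE 0.55). *Krt79*, a keratin of the hair canal and sebaceous ducts, was at 0.220, 0.523 and 0.569 CPM in Apc1322T and at 0.419, 1.57 and 0.727 CPM in ApcMin (1.04, SE 0.63). *Krt222*, a keratin-like type I gene, was at 0.330, 0.859 and 0.876 CPM in Apc1322T and at 0.409, 1.10 and 0.258 CPM in ApcMin (-0.23, SE 0.66). The genotypes overlapped for all 3 genes, and *Krt24* was listed at 0 counts throughout.

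The group of hair follicle and hair took the 26 keratins that were not placed in another group, without a check of each gene. Of these 26, 4 passed the filter, and *Krt84* alone among the 4 separated the genotypes. *Krt84*, a type II hair keratin also found in the tongue, was at 1.14, 0.665 and 0.788 CPM in Apc1322T and at 3.32, 2.04 and 2.31 CPM in ApcMin (1.56, SE 0.35). *Krt36*, a type I hair keratin, was at 2.82, 3.04 and 3.68 CPM in Apc1322T and at 4.08, 1.57 and 1.93 CPM in ApcMin (-0.33, SE 0.40). *Krt87* was at 3.19, 3.08 and 3.41 CPM against 5.61, 2.48 and 2.91 CPM (0.19, SE 0.34), and 36.9% of its stretches of 50 bases also occurred in other genes. *Krt90* was at 0.880, 0.903 and 0.788 CPM against 1.73, 0.629 and 0.632 CPM (0.23, SE 0.49). *Krt36*, *Krt87* and *Krt90* were each highest in ApcMin replicate 1 and lower than every Apc1322T library in ApcMin replicates 2 and 3, and without ApcMin replicate 1 their log2 fold changes were -0.86, -0.26 and -0.44. *Krt84* was also highest in that library, and its value without it was 1.32.

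Among the untested keratins of the hair group, *Krt88* had 0, 1 and 2 counts in Apc1322T and 8, 5 and 6 in ApcMin, and *Krt27* had 1, 5.70 and 6 against 17, 5 and 6. *Krt42* had 4, 0 and 1 against 3, 5 and 8. *Krt25*, *Krt26*, *Krt35*, *Krt39* and *Krt83* reached 3 counts in at least 1 library and had at most about 5 counts. *Krt28*, *Krt34*, *Krt71*, *Krt72* and *Krt82* were listed at 0 counts in all libraries. None of these genes was tested, and with so few counts no difference is read from them. *Krt88* was nevertheless higher in every ApcMin library than in any Apc1322T library.

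Over the 17 other keratins tested, 14 had a positive and 3 a negative log2 fold change, with a median of 0.75 and a range from -0.33 to 3.41. Those tested include genes that passed the filter only through the genotype in which they were higher, so that the count is not evidence of a direction, and without *Krt14*, *Krt6a* and *Krt4* the median was 0.45 over 14 genes. Over all 47, including those filtered out, the median difference in mean log2 CPM was 0.16. This median was the value of *Krt86*, which had 1.08 counts in ApcMin replicate 1 and 0 elsewhere. As 20 of the 47 had under 3 counts in every library, it lies at the detection limit and gives no typical difference. Of the 38 with any count, 29 were higher in ApcMin, as were 23 of the 27 that reached 3 counts in a library. These counts include *Krt14*, *Krt6a* and *Krt4*, and a gene enters them through its highest library. They are therefore not evidence of a direction either, and the share of all genes at the same limits was not computed. A log2 fold change above 1 was found for 6 keratins (*Krt6a*, *Krt4*, *Krt14*, *Krt84*, *Krt17* and *Krt79*), where 4.66% of all genes tested had one. These include the genes that prompted the choice, and *Krt79* overlapped between the genotypes, so nothing is read from this share. In summed CPM, ApcMin over Apc1322T was 5.49 for the injury-related, 5.18 for the basal and 3.07 for the mucosal keratins, and 1.10 for the epidermal, 1.24 for the hair, 1.32 for the corneal and 1.597 for the further epithelial keratins. The first 3 groups did not overlap between the genotypes, and the other 4 did. Each of those 3 ratios was set by a gene that prompted the choice. Without these genes the ratio was 2.36 for the injury-related keratins, still without overlap, and 1.66 for the basal and 1.49 for the mucosal keratins, both with overlap. The injury-related genes left, *Krt16*, *Krt17* and *Krt6b*, share stretches of read length with *Krt14* or *Krt6a*. Their sum may therefore still hold reads of the genes left out.

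Genes of the junctions that anchor keratin filaments mostly had negative log2 fold changes. Of 25 genes of desmosomes and hemidesmosomes, 21 were tested, and the log2 fold change was positive for 5 and negative for 16 (median -0.19). edgeR and DESeq2 each called 0 of them at an adjusted p under 0.01, and at an unadjusted p under 0.05 edgeR had 2 higher and 3 lower, where 7.49% and 7.6% of all genes tested were. *Dsp*, which encodes desmoplakin, the linker between desmosome and keratin, was the most abundant at a mean of 581 CPM (-0.21, SE 0.17). The largest log2 fold change was that of *Dsc3*, a desmocollin of stratified epithelium, which had 109, 18 and 26 counts in Apc1322T and 157, 182 and 1119 in ApcMin (2.95, SE 1.00). Its ApcMin mean rested mostly on replicate 3, a library in which *Krt6a* and *Krt4* were the lowest of their group. *Dsg3*, the desmoglein of the basal layers, ran the other way, with 78, 51 and 69 counts against 36, 43 and 65 (-0.81, SE 0.33). The basal hemidesmosome gene *Col17a1* had between 0 and 10 counts.

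Genes of squamous differentiation other than keratins ranged from abundant to not detected. Of 25 listed, 13 were tested, with 7 higher and 6 lower in ApcMin (median log2 fold change 0.11), and 4 (*Sprr1b*, *Krtdap*, *Calm4* and *Klk5*) were listed at 0 counts in all libraries. edgeR called 0 at an adjusted p under 0.01 and had 3 higher and 3 lower at an unadjusted p under 0.05 (7.49% and 7.6% of all genes tested), and DESeq2 called 2, both higher (*Sprr3* and *Dmkn*), where it called 1.12% of all genes. *Trp63*, the p63 gene, was not tested and had 5, 1 and 1 counts in Apc1322T and 13, 3 and 4 in ApcMin. *Sprr3*, a cornified envelope gene of oesophagus and forestomach, had 2, 3 and 0 counts in Apc1322T and 25, 47 and 21 in ApcMin (3.82, SE 0.86). *Dmkn*, a secreted epidermal protein gene, had 355, 154 and 96 counts against 664, 657 and 2225 (2.22, SE 0.64), the last again ApcMin replicate 3. *Sprr2a3*, the most abundant of the list at a mean of 842 CPM, was lower in every ApcMin library (-0.63, SE 0.19), and *Aqp3*, a water and glycerol channel gene, had the most negative log2 fold change (-1.79, SE 0.67) with overlap. The summed level of the list, set by *Sprr2a3*, was 1169 to 1418 CPM in Apc1322T and 735 to 1054 CPM in ApcMin. This sum follows that single gene and gives no direction for the list, of which 7 tested genes were higher and 6 lower.

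Markers of other cell types were read in the same libraries. Gastric epithelium genes had 4 of 11 tested higher and 7 lower (median log2 fold change -0.50), with *Muc6* the most abundant (-0.72, SE 0.44), the intrinsic factor gene at -1.63 (SE 0.66) and the gastric lipase gene *Lipf* at 5.40 (SE 0.56). *Lipf* had 4, 10 and 4 counts in Apc1322T and 312, 436 and 239 in ApcMin, without overlap. It was the only tested gene of this list to lie higher without overlap, and 2 lay lower without overlap. Of all genes tested, 11% lay higher and 9.96% lower in this way. The summed level of the list overlapped (1460 to 2945 and 924 to 2223 CPM). Of the mesothelium genes, 3 of 7 were tested. *Msln* was the most abundant and had the largest log2 fold change (1.59, SE 0.45), *Upk1b* had the most negative (-0.86, SE 0.27), and the sum was 10.7 to 14.4 CPM in Apc1322T and 15.2 to 38.6 CPM in ApcMin. The glandular duct and myoepithelium list, which itself holds *Krt5*, *Krt14*, *Krt17* and *Trp63*, had 4 of 4 tested genes higher, led in level by *Acta2* (0.59, SE 0.24), and sums of 48.9 to 94.2 and 127 to 150 CPM. Endothelium and leukocyte genes had 4 of 5 higher, from *Cd3e* (-0.26, SE 0.58) to *Cdh5* (1.38, SE 0.37), with sums of 70.04 to 101 and 119 to 157 CPM. The pancreatic acinar genes had 2 of 8 tested, both higher (*Cela1* 0.30, SE 0.38; *Ctrb1* 6.22, SE 2.46), with sums of 73.6 to 153 and 90.2 to 274 CPM. At an adjusted p under 0.01, DESeq2 called 1 gene higher and 0 lower in the gastric list, and likewise in the endothelium and leukocyte list. The same held for the glandular list, where the gene was *Krt14*. Of all genes to which DESeq2 gave an adjusted p, it called 1.12%. The part of any of these cell types in the keratin differences was not tested.

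**Figure D4:**
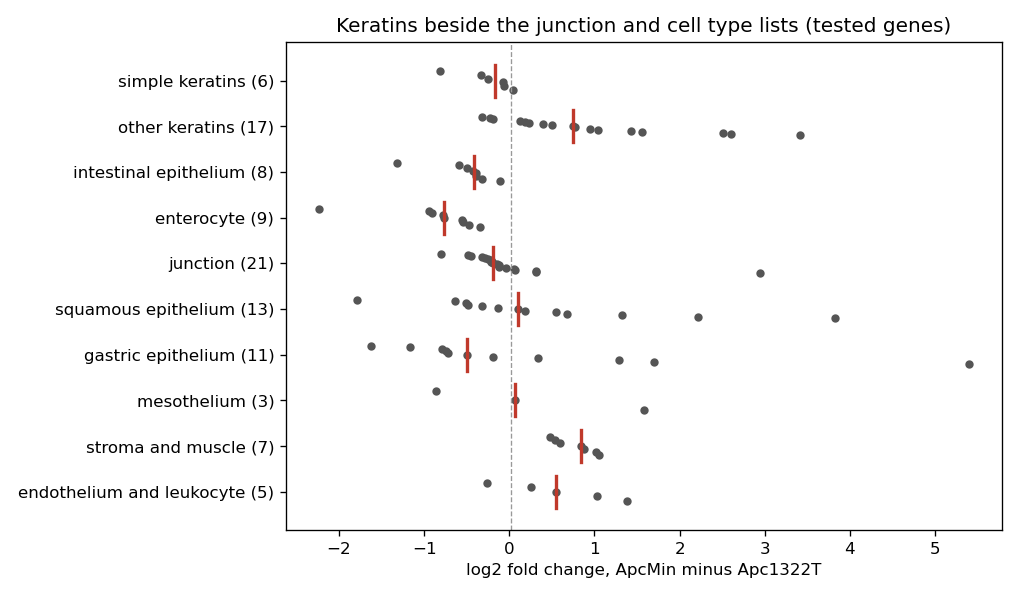
Log2 fold change (ApcMin minus Apc1322T, horizontal axis) of the tested genes of each list, with the number of genes in brackets, a red line at each median and a dashed line at the median of all genes tested. The simple keratins (median -0.16) lie with the intestinal epithelium genes (-0.41) and most junction genes (-0.19) to the left of 0, and the other keratins (0.75) to the right.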

How the data were processed

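Single-end reads of 50 bases from strand-specific libraries, made from 1 μg of total RNA per sample, were assigned by the authors to GRCm38 transcripts with Salmon, in which a read shared by several transcripts is split by their abundance. The authors deposited estimated counts per gene, which are not normalised. The submitters' processing notes name the build GRCm38.p6, Salmon and DESeq2, and the annotation release of their index is not given in the sources used here. Symbols came from GENCODE M21 by Ensembl identifier (34582 of 34866 named), from which positions, lengths (longest protein-coding transcript) and sequences were taken. The gastric intrinsic factor gene is named there by its older symbol.

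Estimated counts were rounded, filtered with filterByExpr (minimum count 10, minimum total 15), normalised by TMM, and tested with edgeR 4.0.16 (quasi-likelihood, robust) in R 4.3.3, genotype being the only term, with Benjamini-Hochberg adjustment at 0.01. Log2 CPM used a prior count of 2. The procedure was tested on simulated counts with 200 changed genes, at an adjusted p under 0.01 and after the filter on low counts. There edgeR recovered 90% of them with 4 false calls, and DESeq2 98% with 26 false calls. Replicate numbers were taken from the labels, and nothing in the labels ties same-numbered libraries, so p-values measure the spread between these libraries. Named were all simple keratins, all other tested keratins, untested ones reaching 3 counts, *Trp63*, and from each of the 10 lists the most abundant gene, those with the largest change in each direction and any called. Genes named beyond this (untested keratins under 3 counts, *Col17a1*, *Dmkn* and genes at 0 counts) were added once their values were known. The members and lists were chosen with earlier results of these data known. The alternatives were other normalizations, DESeq2 1.42.0, limma-voom (limma 3.58.1), no robust estimation, other filters, a threshold of 0.05, each library left out, and a replicate block.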

Additional observations from a re-analysis of the deposited data

How the results depend on the processing

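With DESeq2's Wald test, 194 genes were called at an adjusted p under 0.01 in place of 0, with 3 keratins and 2 squamous genes among them. With no filter on low counts, and likewise at an adjusted p under 0.05, edgeR called 1 gene, which was 1 keratin, *Krt14*. Leaving out single libraries, the number of genes called ranged from 0 to 1 (without ApcMin replicate 3), and 0 keratins were called each time. The median log2 fold change of the other keratins then ranged from 0.46 (without Apc1322T replicate 1, and likewise without ApcMin replicate 2) to 0.81, and that of the simple keratins from -0.23 to -0.15. Without *Krt14*, *Krt6a* and *Krt4*, an alternative chosen after seeing the data, the median of the other keratins was 0.45. Of the 23 keratins tested, 17 kept their direction in all 14 alternatives. The 6 others reversed only when a library was left out, with log2 fold changes ranging from -0.20 to 0.22 (*Krt23*), -0.19 to 0.045 (*Krt7*), -0.47 to 0.29 (*Krt78*), -1.01 to 0.14 (*Krt222*), -0.26 to 0.40 (*Krt87*) and -0.44 to 0.47 (*Krt90*). The cause was not tested. *Krt14* ranged from 2.39 to 2.69, *Krt6a* from 3.19 to 3.71 and *Krt4* from 2.41 to 2.80. With the replicate number as a replicate block, 0 genes were called at 0.01, and the medians were -0.16 for the simple and 0.68 for the other keratins. The deviations of same-numbered libraries had correlations of -0.01, 0.16 and -0.29, within the range of the other pairs (-0.36 to 0.33). With 3 libraries per genotype, each set centred on its own mean, these values cannot decide whether the numbers pair the libraries. Keratins below about 0.13 CPM lie under what these depths can show, and counts within sets of genes that share reads depend on how reads were divided.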
